A study of Mus musculus with 27 samples.

Results

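A group of 10 neutrophil genes was followed through the rectum of mice after irradiation. They code for cytosolic and granule proteins (S100a8, S100a9, Ngp, Mmp8), secreted proteins (Retnlg, Chil3, Wfdc21), a protease inhibitor (Stfa2l1) and receptors (Cxcr2, Csf3r), and they were 10 of the 19690 genes in the count table. Each gene was taken by its symbol, and the 10 were selected on their measured levels in these same libraries, high in the irradiated mice at 2 weeks and lower at 8 weeks. Their levels at these times are therefore a description, and no p-value is given for them.

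RNA of whole rectal tissue from C57BL/6 mice (C57BL/6J in the study's methods) was sequenced, with 27 libraries in 9 groups of 3 mice. The irradiated groups received a single dose of 25 Gy to the lower pelvis and were sampled early (4 h, then 1 day, then 3 days) or late (2 or 8 weeks). Sham-irradiated mice were sampled at 4 h, 3 days, 2 weeks and 8 weeks, and the sham mice at 4 h served as controls for the irradiated mice at both 4 h and 1 day. All mice were female and 8 to 10 weeks old at the start in the study's methods, and the labels give no other agent or allele. Libraries held 17966356 to 23281174 counts. Markers of rectal epithelium summed to 6435 to 16850 CPM (the counts of a library scaled to a common total) in the 27 libraries, so the labelled tissue was present in each. In such bulk tissue, fewer cells of a type and less RNA per cell cannot be told apart.

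Neutrophils are short-lived white cells made in the bone marrow. They leave it under the control of granulocyte colony-stimulating factor, which signals through the receptor encoded by Csf3r, and enter inflamed tissue along chemokines that bind the receptor encoded by Cxcr2. Their granule proteins are made in sequence while the cell matures in the marrow, those of the azurophil granules first and those of the specific and gelatinase granules later, so that most granule mRNAs are low in mature cells. S100a8 and S100a9 form calprotectin, the main cytosolic protein of the neutrophil.

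The members lie on several chromosomes. In the mm9 build, S100a8 lies at chr3:90472993-90473956 on the plus strand and S100a9 at chr3:90496554-90499643 on the minus strand, 22597 bases away. Chil3 lies on the same chromosome at chr3:105950472-106022425. Ngp and Mmp8 share chromosome 9, at chr9:110322254-110325514 and chr9:7558429-7568486, and Retnlg and Stfa2l1 share chromosome 16, at chr16:48872721-48874611 and chr16:36156897-36162034. Cxcr2 lies at chr1:74200563-74207812, Wfdc21 at chr11:83560442-83566144 and Csf3r at chr4:125701794-125722219.

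Promoter sequence was looked at because the members moved together. RefSeq windows in the GRCm38.p6 build were found for 9 of the 10 members, all but Wfdc21, and the 250 bases before each gene's start were searched on both strands for TTGCNNAA, a form of the site bound by C/EBP factors, and for GAGGAAGT, a form of the site bound by PU.1, both regulators of myeloid genes. The letters of both motifs were chosen with the members' sequences in view. TTGCNNAA was found in 4 of the 9 windows (S100a9, Ngp, Mmp8 and Retnlg) and in 9.56% of 32851 windows of the same length over all genes. GAGGAAGT was found in 2 of the 9 (S100a8 and Mmp8) and in 2.44% of the 32851. Because the letters were chosen with these sequences in view, nothing is read from the members' numbers beside the shares over all genes. A match is a description of the letters and not a site shown to be bound. The windows of the calprotectin genes and of the granule genes Ngp and Mmp8 are shown 5′ to 3′ in the direction of the gene, with the matches in capitals, from chr3:90668821-90669070 (plus strand), chr3:90695722-90695971 (minus strand), chr9:110419558-110419807 (plus strand) and chr9:7558179-7558428 (plus strand).
S100a8: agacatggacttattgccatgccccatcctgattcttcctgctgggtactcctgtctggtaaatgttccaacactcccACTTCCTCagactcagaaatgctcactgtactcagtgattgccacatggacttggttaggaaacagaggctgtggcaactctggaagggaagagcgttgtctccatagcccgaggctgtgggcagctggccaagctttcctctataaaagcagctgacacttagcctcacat
S100a9: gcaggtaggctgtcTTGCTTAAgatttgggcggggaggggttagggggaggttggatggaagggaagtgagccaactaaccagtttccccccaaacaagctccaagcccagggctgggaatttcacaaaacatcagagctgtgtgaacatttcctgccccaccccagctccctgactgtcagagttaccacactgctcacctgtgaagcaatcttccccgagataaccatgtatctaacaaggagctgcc
Ngp: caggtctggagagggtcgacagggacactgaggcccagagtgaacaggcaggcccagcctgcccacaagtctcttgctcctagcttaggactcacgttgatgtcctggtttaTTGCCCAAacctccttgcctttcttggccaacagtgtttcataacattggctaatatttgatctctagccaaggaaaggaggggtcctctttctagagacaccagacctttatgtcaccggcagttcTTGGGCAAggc
Mmp8: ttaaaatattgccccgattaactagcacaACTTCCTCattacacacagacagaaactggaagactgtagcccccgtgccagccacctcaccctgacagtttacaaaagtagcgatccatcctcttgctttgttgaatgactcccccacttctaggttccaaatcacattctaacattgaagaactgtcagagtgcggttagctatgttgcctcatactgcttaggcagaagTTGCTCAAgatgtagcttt
The match in S100a8 is GAGGAAGT on the minus strand of the gene and starts 172 bases before its start. S100a9 has 1 match of TTGCNNAA, 236 bases before its start. Ngp has 2, starting at 138 and 11 bases before its start, the nearer one on the opposite strand. Mmp8 has both motifs, GAGGAAGT on the opposite strand 221 bases before the start and TTGCNNAA 19 bases before it. The printed windows thus share no single motif, and the windows of Chil3, Cxcr2, Stfa2l1 and Csf3r held neither set of letters.

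In the sham mice and in the first days after irradiation the members were at the limit of detection. Over the 12 sham libraries the counts of a member in 1 library ran from 0 to 20, and over the 9 irradiated libraries of the first 3 days from 0 to 20 as well. Stfa2l1 had 0 counts in the 12 sham and in the 9 irradiated libraries, which allows up to 3 counts in a library. Csf3r was the only member with counts in every library, 2 to 19, and its highest level there was 0.979 CPM.

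None of the 10 members had enough counts to be tested at 4 h, 1 day or 3 days. At 1 day 3 members, S100a8, S100a9 and Chil3, were higher in every irradiated mouse than in every sham mouse at 4 h, where 13.4% of all tested genes were so ordered. S100a9, for example, had 0.404, 0.406 and 0.464 CPM in irradiated mice at 1 day, against 0, 0.390 and 0.352 CPM in sham mice. For each of the 3, the lowest irradiated and the highest sham library held the same count, 3 of S100a8, 8 of S100a9 and 1 of Chil3. Their order thus rests on the scaling of the libraries alone. At 3 days 3 members, Ngp, Chil3 and Csf3r, were so ordered, beside 22.2% of all tested genes, and Retnlg was lower in every irradiated mouse. Csf3r had 0.457, 0.498 and 0.656 CPM in irradiated mice at 3 days, against 0.205, 0.197 and 0.444 CPM in sham mice. Here too the lowest irradiated and the highest sham library held the same count, 9 of Csf3r. Cxcr2 had 0.356, 0 and 0.807 CPM in irradiated mice at 3 days, against 0.102, 0.0492 and 0 CPM in sham mice. The groups overlap, and the ratio of their summed counts, 23 against 3, was 7.73 with a 95% counting interval of 2.34 to 40.2. Such intervals cover counting error only and not the spread between mice.

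At 2 weeks all 10 members stood far above sham in each of the 3 irradiated mice, and at 8 weeks all 10 were still above sham in each mouse, at lower levels. The edgeR fit over all genes called 10 of the 10 members higher at 2 weeks (adjusted p under 0.05), where it called 16.5% of all tested genes higher, and 25.6% of tested genes had all irradiated mice above all sham mice. At 8 weeks it called 9 of the 9 members tested higher, beside 21.5% of tested genes, and the 10 members were among genes of which 29.4% had no overlap. Since the members were chosen by their levels at these times, nothing is read from these counts. Leaving out sham mouse 1 or 3 at 2 weeks brought the 10 calls to 5 and 6. None of the 10 had 10 counts in all 3 sham libraries at either time, so each passed the filter on low counts through the irradiated mice. Ngp was not tested at 8 weeks, where 1 irradiated library held too few counts of it.

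**Figure D1:**
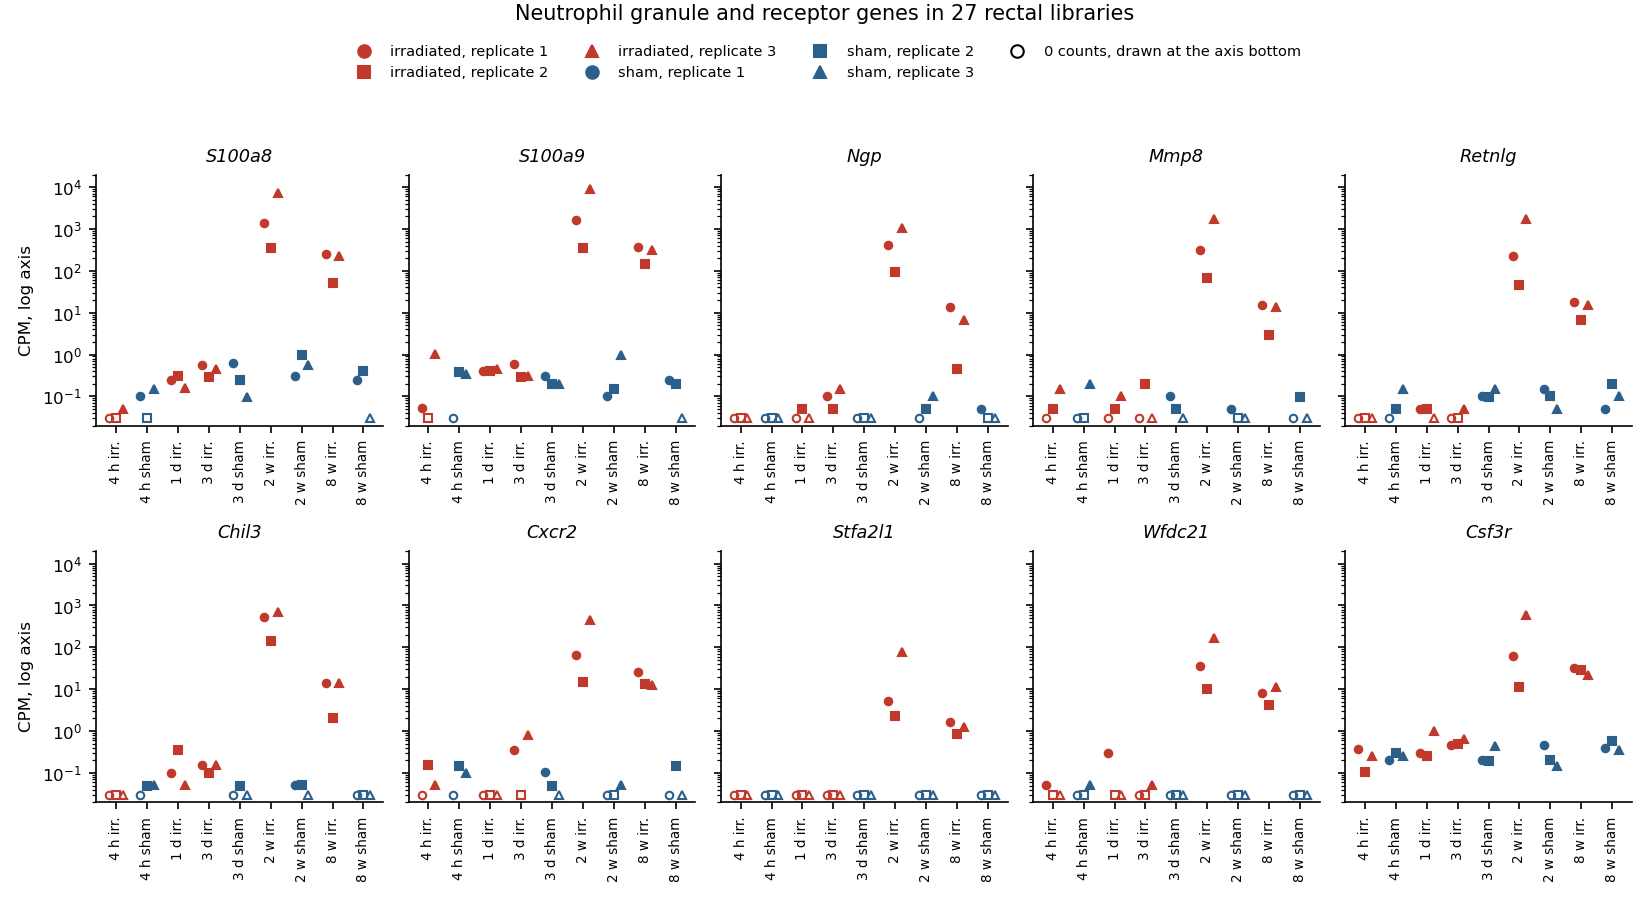
CPM of each of the 10 members (log axis) in the 27 libraries, by time after irradiation, with irradiated mice in red left of sham mice in blue and 1 symbol per mouse. Open symbols are libraries with 0 counts. At 2 and 8 weeks all irradiated mice lie above all sham mice for each member, and at 2 weeks replicate 3 is the highest and replicate 2 the lowest throughout.

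Calprotectin genes had the highest levels. S100a8 had 1391, 357 and 7095 CPM in irradiated mice at 2 weeks (replicates 1, 2 and 3), against 0.303, 0.953 and 0.551 CPM in sham mice. The groups were far apart, and within the irradiated group the highest mouse had 19.9 times the level of the lowest. The fitted log2 fold change was 12.24 ± 1.56 (SE). At 8 weeks S100a8 had 257, 50.04 and 223 CPM in irradiated mice, against 0.247, 0.396 and 0 CPM in sham mice, a log2 fold change of 9.62 ± 0.937 (SE). S100a9 had 1619, 350.2 and 8775 CPM in irradiated mice at 2 weeks, against 0.101, 0.150 and 1.00 CPM in sham mice, a log2 fold change of 13.04 ± 1.83 (SE). S100a9 at 8 weeks had 367, 144 and 313 CPM in irradiated mice, against 0.247, 0.198 and 0 CPM in sham mice, a log2 fold change of 10.76 ± 0.646 (SE). Both genes thus followed the same mice, with replicate 3 highest at 2 weeks and replicate 2 lowest at both times.

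The granule genes Ngp and Mmp8 were also far above sham at 2 weeks, and nearer to it at 8 weeks. Ngp codes for neutrophilic granule protein, a cathelicidin-related protein of the specific granules. It had 407, 91.8 and 1040.0 CPM in irradiated mice at 2 weeks, against 0, 0.0501 and 0.1001 CPM in sham mice. The sham mice held 3 counts of Ngp together, and the ratio of summed counts was 10300 (95% counting interval 3530 to 50000). At 8 weeks Ngp had 14.0, 0.451 and 6.59 CPM in irradiated mice, against 0.0493, 0 and 0 CPM in sham mice. Replicate 2 held 9 counts of Ngp, against 1, 0 and 0 counts in the sham mice. The ratio of summed counts was 429 there (76.7 to 17000). Mmp8, the neutrophil collagenase stored in specific granules, had 307, 69.1 and 1744 CPM in irradiated mice at 2 weeks, against 0.0505, 0 and 0 CPM in sham mice. With 1 sham count in all, the ratio was 42900 (7690 to 1690000). At 8 weeks Mmp8 had 15.7, 3.01 and 14.0 CPM in irradiated mice, against 0, 0.0991 and 0 CPM in sham mice, a ratio of 332 (91.6 to 2750). No irradiated mouse overlapped with sham for either gene, and replicate 2 was the lowest irradiated mouse at both times.

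The secreted proteins showed the same order of mice at 2 weeks. Retnlg codes for resistin-like gamma, a small cysteine-rich protein of myeloid cells. It had 221, 46.0 and 1683 CPM in irradiated mice at 2 weeks, against 0.152, 0.1003 and 0.0501 CPM in sham mice, a log2 fold change of 12.57 ± 1.93 (SE). Retnlg at 8 weeks had 17.6, 6.62 and 15.1 CPM in irradiated mice, against 0.0493, 0.198 and 0.1003 CPM in sham mice, a log2 fold change of 6.72 ± 0.587 (SE). Chil3 codes for a chitinase-like lectin, also called Ym1, that neutrophils and some macrophages secrete. It had 521, 140.0 and 706 CPM in irradiated mice at 2 weeks, against 0.0505, 0.0501 and 0 CPM in sham mice, a ratio of 13700 (95% counting interval 3780 to 113000). The spread between irradiated mice was the smallest among the members, 5.05 times from lowest to highest. At 8 weeks Chil3 had 14.3, 2.11 and 13.8 CPM in irradiated mice and 0 counts in the 3 sham mice. Against a floor of 3 counts over the sham group its summed counts were at least 204-fold higher. Wfdc21 codes for a small secreted protein with a WAP-type domain. It had 35.7, 9.86 and 167 CPM in irradiated mice at 2 weeks and 0 counts in the sham mice. Its summed counts were at least 1430-fold higher, and replicate 3 held 3445 of the 4352 counts. Wfdc21 at 8 weeks had 7.89, 4.16 and 11.02 CPM in irradiated mice and again 0 counts in the sham mice, at least 155-fold higher by summed counts. Wfdc21 was the only member whose highest mouse at 8 weeks was replicate 3.

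Stfa2l1, a stefin A-like gene of the cystatin family of cysteine protease inhibitors, was the member at the lowest CPM. It had 5.09, 2.28 and 77.9 CPM in irradiated mice at 2 weeks and 0 counts in the sham mice. Its summed counts were at least 577-fold higher, and replicate 3 held 1611 of the 1758 counts. At 8 weeks it had 1.63, 0.852 and 1.23 CPM in irradiated mice, against 0 counts in the sham mice, at least 25.0-fold higher by summed counts. Stfa2l1 belongs to a cluster of similar stefin genes, and how reads shared between them were counted is not known.

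The receptor genes kept a larger share of their level at 8 weeks than most members. Cxcr2 had 65.5, 14.8 and 454 CPM in irradiated mice at 2 weeks, against 0, 0 and 0.0501 CPM in sham mice, a ratio of 10800 with 1 sham count (95% counting interval 1940 to 427000). At 8 weeks Cxcr2 had 25.7, 13.6 and 12.9 CPM in irradiated mice, against 0, 0.149 and 0 CPM in sham mice, a ratio of 353 (120 to 1710). The mice at 8 weeks lay within a range that overlaps that of the mice at 2 weeks. Csf3r had 62.5, 11.2 and 580.0 CPM in irradiated mice at 2 weeks, against 0.455, 0.201 and 0.150 CPM in sham mice, a log2 fold change of 9.63 ± 1.85 (SE). At 8 weeks it had 32.4, 28.0 and 21.7 CPM in irradiated mice, against 0.395, 0.594 and 0.351 CPM in sham mice, a log2 fold change of 5.89 ± 0.278 (SE). All 3 mice at 8 weeks had more Csf3r than the lowest mouse at 2 weeks.

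Per gene length, in the deposited FPKM, calprotectin led at both times. At 2 weeks the irradiated mice had a mean of 18240 ± 21590 FPKM of S100a8 and 15280 ± 18560 FPKM of S100a9 (SD, n = 3), followed by Retnlg (2265 ± 3118), Wfdc21 (662 ± 737) and Ngp (503 ± 479). Chil3 (349.7 ± 229), Mmp8 (328 ± 432), Stfa2l1 (216 ± 315), Csf3r (63.5 ± 91.8) and Cxcr2 (63.1 ± 86.7 FPKM) came after them, and each neighbour in this order differed from the next by less than the larger SD. At 8 weeks S100a9 had 1182 ± 528 FPKM and S100a8 1061 ± 682 FPKM, Wfdc21 69.7 ± 28.7, Retnlg 45.7 ± 20.7, and the other 6 had means of 5.17 to 10.1 FPKM. The gaps from S100a8 to Wfdc21 and from Retnlg to the next gene, Stfa2l1 at 10.1 ± 3.80 FPKM, were wider than the larger SD, and the other gaps were not. Wfdc21 thus stood ahead of Retnlg at 8 weeks and after it at 2 weeks. Together the members took 0.479%, 0.108% and 1.98% of all counts in irradiated mice at 2 weeks, and 0.0784%, 0.0281% and 0.0668% at 8 weeks.

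Irradiated mice at 8 weeks were then set against those at 2 weeks. This comparison and that of 2 weeks with 3 days were added after the data were seen, because sham groups at 0 counts leave a change of the radiation effect without a usable estimate. The mean level at 8 weeks was 1.37% of that at 2 weeks for Ngp, 1.54% for Mmp8, 2.01% for Retnlg and 2.21% for Chil3. It was 4.35% for Stfa2l1, 5.98% for S100a8 and 7.67% for S100a9, and 9.79% for Cxcr2, 10.9% for Wfdc21 and 12.6% for Csf3r. These means rest much on replicate 3 at 2 weeks. By medians the shares were 1.62% for Ngp, 4.57% for Mmp8, 6.82% for Retnlg and 2.66% for Chil3. They were 24.1% for Stfa2l1, 16% for S100a8, 19.3% for S100a9, 20.8% for Cxcr2, 22.1% for Wfdc21 and 44.9% for Csf3r. Ngp, Mmp8, Retnlg and Chil3 thus stood lowest and Csf3r highest by both measures, while the place of Stfa2l1 changed. For 6 members, S100a8, Ngp, Mmp8, Retnlg, Chil3 and Stfa2l1, all mice at 8 weeks were below all mice at 2 weeks, and for the other 4 the mice overlapped. The fit called 1 of 10 members lower at 8 weeks than at 2 weeks, Chil3 (log2 fold change -5.46 ± 0.939, SE), where 0.152% of all tested genes were called lower. DESeq2 called 7 and a fit of all 9 groups 9, 8 were called without irradiated mouse 2 at 2 weeks, and leaving out another late irradiated mouse brought the count to 0 in 4 of 5 cases. Of 10 members, 10 were called higher in irradiated mice at 2 weeks than at 3 days, beside 14.2% of tested genes. Without irradiated mouse 1, 2 or 3 at 3 days 5, 4 and 5 were called. Both comparisons used the levels by which the members were chosen, so nothing is read from their counts.

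The change of the radiation effect itself, each irradiated group against its own sham mice, was called higher at 2 weeks than at 3 days for 2 of the 10 members, S100a8 and S100a9, where 10.2% of tested genes were called higher. Same-numbered mice deviated together at 3 days, and with the replicate number as a block 7 members were called. The members were chosen by their levels at 2 weeks, so nothing is read from either count. Without sham mouse 1, 2 or 3 at 3 days the count was 0, 1 and 1, and without irradiated mouse 2 or 3 at 2 weeks it was 5 and 4. From 2 weeks to 8 weeks it was called for 0 of 10 members in edgeR's quasi-likelihood test, where 0.495% of tested genes were called lower and 0.784% higher. At an unadjusted p under 0.05 the number was 0 of 10, and DESeq2 called 1. These counts rest on sham groups at or near 0 counts, so a member that was not called cannot be taken as unchanged.

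The mice of a group differed in level. At 2 weeks all 10 members were highest in replicate 3, next in replicate 1 and lowest in replicate 2, with 5.05 times (Chil3) to 52.0 times (Csf3r) between the extremes. At 8 weeks replicate 1 was highest for 9 members, and replicate 2 was lowest for 8. Because 1 mouse can set a group mean, levels were also taken relative to Csf3r within each library. Ngp stood at 0.431, 0.0161 and 0.305 times the CPM of Csf3r in irradiated mice at 8 weeks, against 6.51, 8.23 and 1.79 times at 2 weeks. Chil3 stood at 0.440, 0.0751 and 0.639 times Csf3r at 8 weeks, against 8.33, 12.6 and 1.22 times at 2 weeks. Mmp8 stood at 0.484, 0.107 and 0.648 times at 8 weeks, against 4.91, 6.20 and 3.01 times at 2 weeks. For these 3 genes and for Retnlg, Stfa2l1, S100a8 and S100a9, every mouse at 8 weeks lay below every mouse at 2 weeks on this ratio. Among the members Csf3r kept the largest share of its level at 8 weeks, which lowers these ratios there. The members were also chosen by their levels at these times, so nothing is read from this order. Cxcr2 and Wfdc21 overlapped between the times, with Cxcr2 at 0.794, 0.487 and 0.595 times Csf3r at 8 weeks, against 1.05, 1.32 and 0.782 times at 2 weeks. Between calprotectin's own genes there were 0.700, 0.347 and 0.712 CPM of S100a8 per CPM of S100a9 at 8 weeks, against 0.859, 1.02 and 0.809 at 2 weeks. This difference was not tested and rests on the same levels, so nothing is read from it either.

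**Figure D2:**
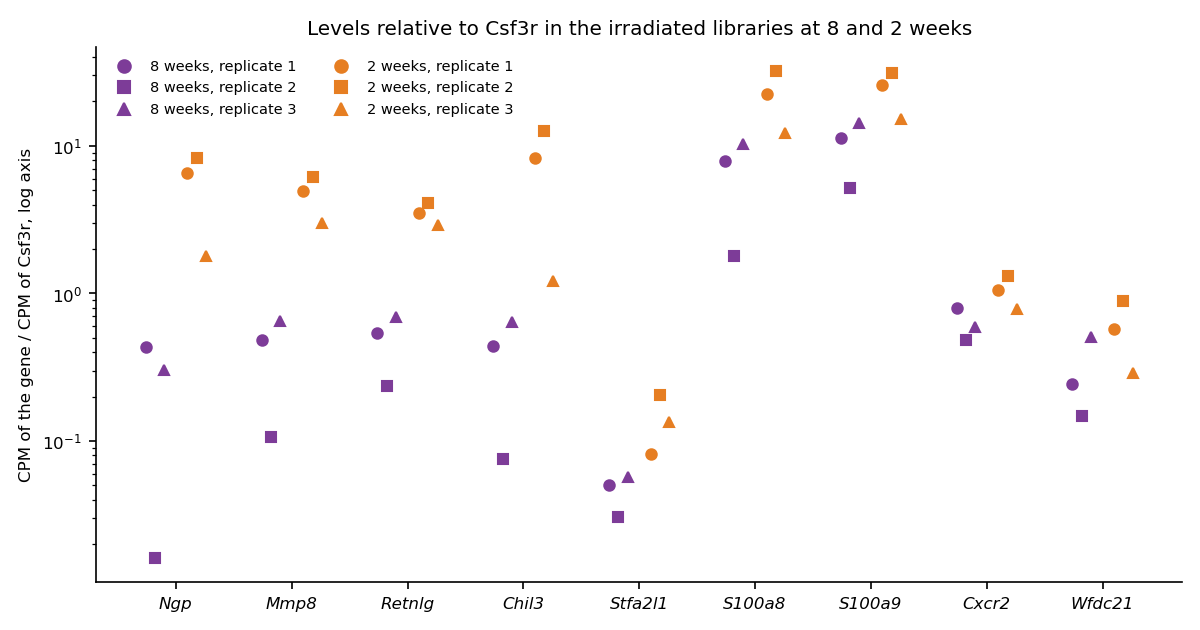
CPM of each member divided by the CPM of Csf3r in the same library (log axis) in irradiated mice at 8 weeks (purple) and at 2 weeks (orange), 1 symbol per mouse, with members ordered by the share of their mean 2-week level left at 8 weeks. The ratios of Ngp at 8 weeks are 0.0161 to 0.431 and at 2 weeks 1.79 to 8.23, and those of Cxcr2 and Wfdc21 overlap between the times.

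Other neutrophil genes, which took no part in the choice of the members, were read from lists written for this purpose with earlier results of these data known. Of 15 genes of specific and gelatinase granules, 14 were tested at 2 weeks and 14 rose. At 8 weeks 10 of 12 tested rose, with no gene called lower. Of all tested genes 16.5% were called higher at 2 weeks and 21.5% at 8 weeks, which applies to the later lists too. In each list, genes near 0 counts in sham mice passed the filter on low counts through the irradiated mice. Such genes could be called only higher. Leaving out sham mouse 1 at 2 weeks brought the 14 calls to 7. Lactotransferrin (Ltf) had 327, 83.8 and 736 CPM in irradiated mice at 2 weeks, against 0.202, 0.301 and 5.71 CPM in sham mice (log2 fold change 7.51 ± 1.51, SE, edgeR adjusted p = 0.0162). Ltf at 8 weeks had 131, 2638 and 15.7 CPM in irradiated mice, against 0.691, 0.446 and 0.1003 CPM in sham mice (11.06 ± 2.25, adjusted p = 0.00708). Without sham mouse 1 or 2 the call of Ltf at 2 weeks was lost (adjusted p = 0.0616 and 0.06). Replicate 2, the irradiated mouse with the lowest Ngp and Mmp8 at 8 weeks, thus had the most Ltf. The cathelicidin gene Camp had 21.7, 5.20 and 29.7 CPM in irradiated mice at 2 weeks, against 0.0505, 0.1003 and 0.0501 CPM in sham mice (8.00 ± 0.913, adjusted p = 0.00385). At 8 weeks Camp was not tested, with 2.87, 0.451 and 1.08 CPM in irradiated mice, against 0.0493, 0 and 0 CPM in sham mice. Lipocalin 2 (Lcn2), gelatinase B (Mmp9), haptoglobin (Hp) and lysozyme (Lyz2) rose at both times, with log2 fold changes of 4.21 to 10.49 at 2 weeks and 2.14 to 9.39 at 8 weeks.

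Some genes of this list had a level or a change before the members did, in both directions. In the list 2 genes were called higher at 4 h, 1 at 1 day and 2 at 3 days. At 1 day and at 3 days 1 was called lower, beside 2.03% and 10.1% of all tested genes. Cd177, named after its values were seen, had 9.70, 16.9 and 13.8 CPM in irradiated mice at 1 day, against 71.0, 54.6 and 97.8 CPM in sham mice. Lcn2, which epithelium also makes, had 11.6, 12.4 and 10.9 CPM in irradiated mice at 4 h, against 1.48, 1.51 and 1.31 CPM in sham mice (log2 fold change 3.00 ± 0.192, SE, edgeR adjusted p = 8.36e-05), when 5.78% of all tested genes were called higher. Ltf rose at 1 day, to 27.7, 20.8 and 34.9 CPM in irradiated mice, against 0.357, 5.81 and 0.855 CPM in sham mice (3.54 ± 0.744, adjusted p = 0.0382), when 1.97% of tested genes were called higher. This call was lost without any 1 of sham mice 1 and 3 and irradiated mice 1, 2 and 3 (adjusted p of 0.0737 to 0.140). The members stayed at the limit of detection in these libraries, as did Camp, with at most 0.103 CPM in an irradiated mouse at 4 h or 1 day. Azurophil granule genes were low at all times. Myeloperoxidase (Mpo) had 0.504, 0.743 and 1.35 CPM in irradiated mice at 2 weeks and 0 counts in sham mice, and neutrophil elastase (Elane) had 0.706, 0.198 and 0.435 CPM in irradiated mice against 0 counts in sham mice. Of 5 azurophil genes 2 were tested at 2 weeks and both, Mpo and Prtn3, rose, and none had enough counts at 8 weeks. Mpo and Prtn3 passed the filter on low counts through the irradiated mice, so they could be called only higher. Without sham mouse 1 the 2 calls came to 1, that of Mpo being lost (adjusted p = 0.0527), and at 8 weeks 1 gene was called whenever any 1 of the 6 mice was left out.

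Most genes of neutrophil surface receptors rose at the same times as the members, and Ly6g did not. Of 19 in the table, 16 of 18 tested rose at 2 weeks and 17 of 19 rose at 8 weeks. Itgam, the integrin chain CD11b, had 379, 80.2 and 957 CPM in irradiated mice at 2 weeks, against 3.43, 6.37 and 3.61 CPM in sham mice (log2 fold change 6.71 ± 0.996, SE, edgeR adjusted p = 0.00741). At 8 weeks Itgam had 41.7, 48.6 and 59.0 CPM in irradiated mice, against 5.67, 4.90 and 5.02 CPM in sham mice (3.22 ± 0.152, adjusted p = 2.37e-05). Leaving out sham mice 1, 2 or 3 at 2 weeks brought the 16 calls to 7, 9 and 7. Ly6g, the surface protein by which mouse neutrophils are usually stained, was detected in every library, also in the sham mice that had almost no counts of the members. It had 130.3, 134 and 200.2 CPM in irradiated mice at 2 weeks, against 109, 117 and 108 CPM in sham mice, and although the mice did not overlap the difference did not pass the test (0.46 ± 0.192, adjusted p = 0.119). At 8 weeks it was lower, with 67.0, 50.7 and 39.2 CPM in irradiated mice, against 149, 191 and 159 CPM in sham mice (-1.70 ± 0.213, adjusted p = 0.00082), when 16.5% of tested genes were called lower. The change from 2 to 8 weeks passed the test of the difference itself (-2.16 ± 0.307, adjusted p = 0.0087). Ly6g has close relatives in the Ly6 family, and how reads shared between them were counted is not known. Cd33, a sialic acid-binding receptor of myeloid cells, rose at both times (5.88 ± 1.15, adjusted p = 0.0153 at 2 weeks, and 2.41 ± 0.151, adjusted p = 6.06e-05 at 8 weeks), and its call at 2 weeks was lost without any 1 of the sham mice (adjusted p of 0.061 to 0.0695).

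**Figure D3:**
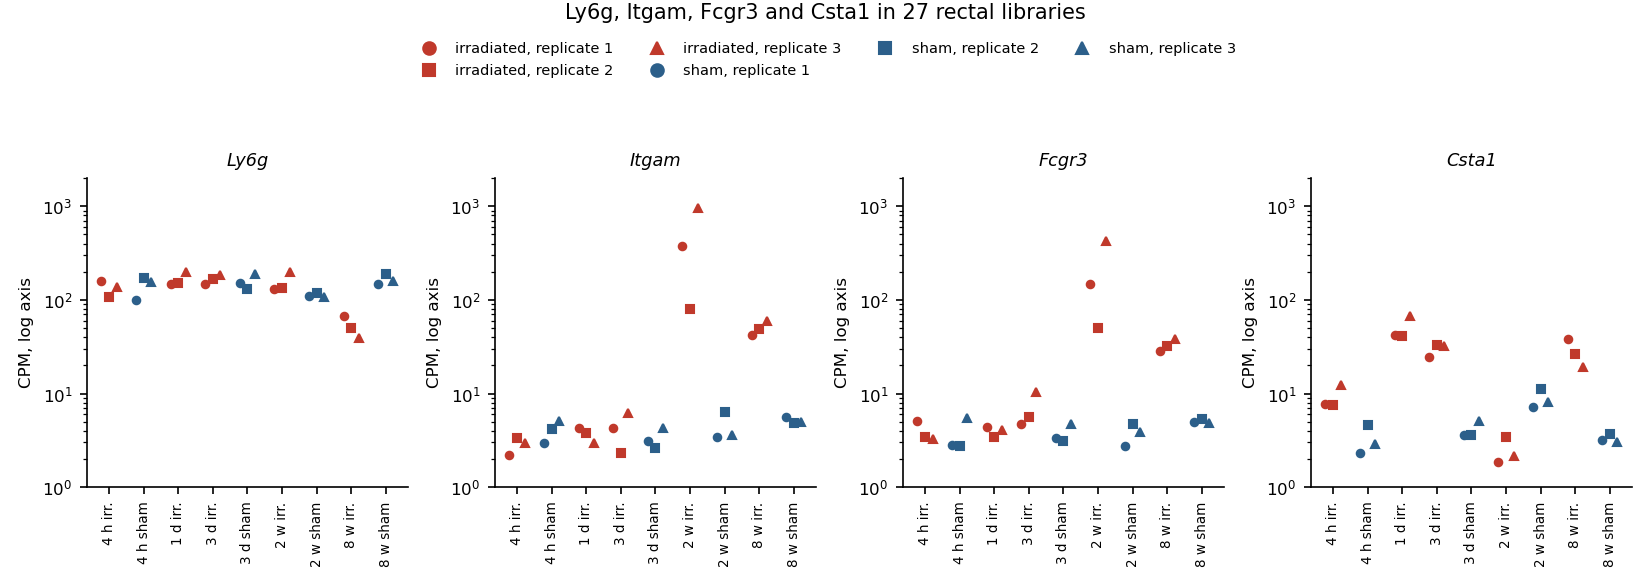
CPM (log axis) of the neutrophil surface genes Ly6g, Itgam and Fcgr3 and of the stefin gene Csta1 in the 27 libraries, with irradiated mice in red left of sham mice in blue and 1 symbol per mouse. Itgam and Fcgr3 are highest in irradiated mice at 2 weeks, Ly6g lies between 99.5 and 200.2 CPM in all libraries except those of irradiated mice at 8 weeks, and Csta1 is below sham at 2 weeks and above it at the other times.

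Ligands of the 2 receptors rose at the same times. Of 9 listed genes, these ligands and cytokines upstream of them, 6 of 7 tested rose at 2 weeks and 7 of 7 at 8 weeks. Cxcl2 had 296, 47.1 and 2711 CPM in irradiated mice at 2 weeks, against 0.202, 0.0501 and 0.200 CPM in sham mice (log2 fold change 12.66 ± 2.08, SE, edgeR adjusted p = 0.00969). Replicate 3 was highest, as for the members, and without sham mouse 1 the adjusted p was 0.0511. Cxcl1 and Cxcl5 had another order of mice. Cxcl5 had 456, 122 and 222 CPM in irradiated mice at 2 weeks, against 3.13, 5.16 and 4.86 CPM in sham mice (5.91 ± 0.571, adjusted p = 0.00301), with replicate 1 highest. Csf3, the gene of granulocyte colony-stimulating factor, had 120.4, 16.0 and 48.5 CPM in irradiated mice at 2 weeks and 0 counts in sham mice. With a floor of 3 counts over the sham group its summed counts were at least 1220-fold higher. At 8 weeks it had 4.45, 6.67 and 6.30 CPM in irradiated mice, against 0, 0 and 0.0502 CPM in sham mice, a ratio of 349 (95% counting interval 62.3 to 13800). Cxcl5 rose before the members, to 14.8, 14.5 and 19.4 CPM in irradiated mice at 3 days, against 1.23, 0.689 and 2.17 CPM in sham mice (3.53 ± 0.382, adjusted p = 0.000985), when 10.4% of tested genes were called higher. It had also risen at 1 day (2.34 ± 0.411, adjusted p = 0.0196), with 5.96, 11.4 and 8.76 CPM in irradiated mice, against 1.94, 2.39 and 0.754 CPM in sham mice. That call was lost without sham mouse 1 or irradiated mouse 2 or 3 (adjusted p of 0.0724 to 0.0780). Leaving out sham mouse 1 at 2 weeks brought the 6 calls there to 3.

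**Figure D4:**
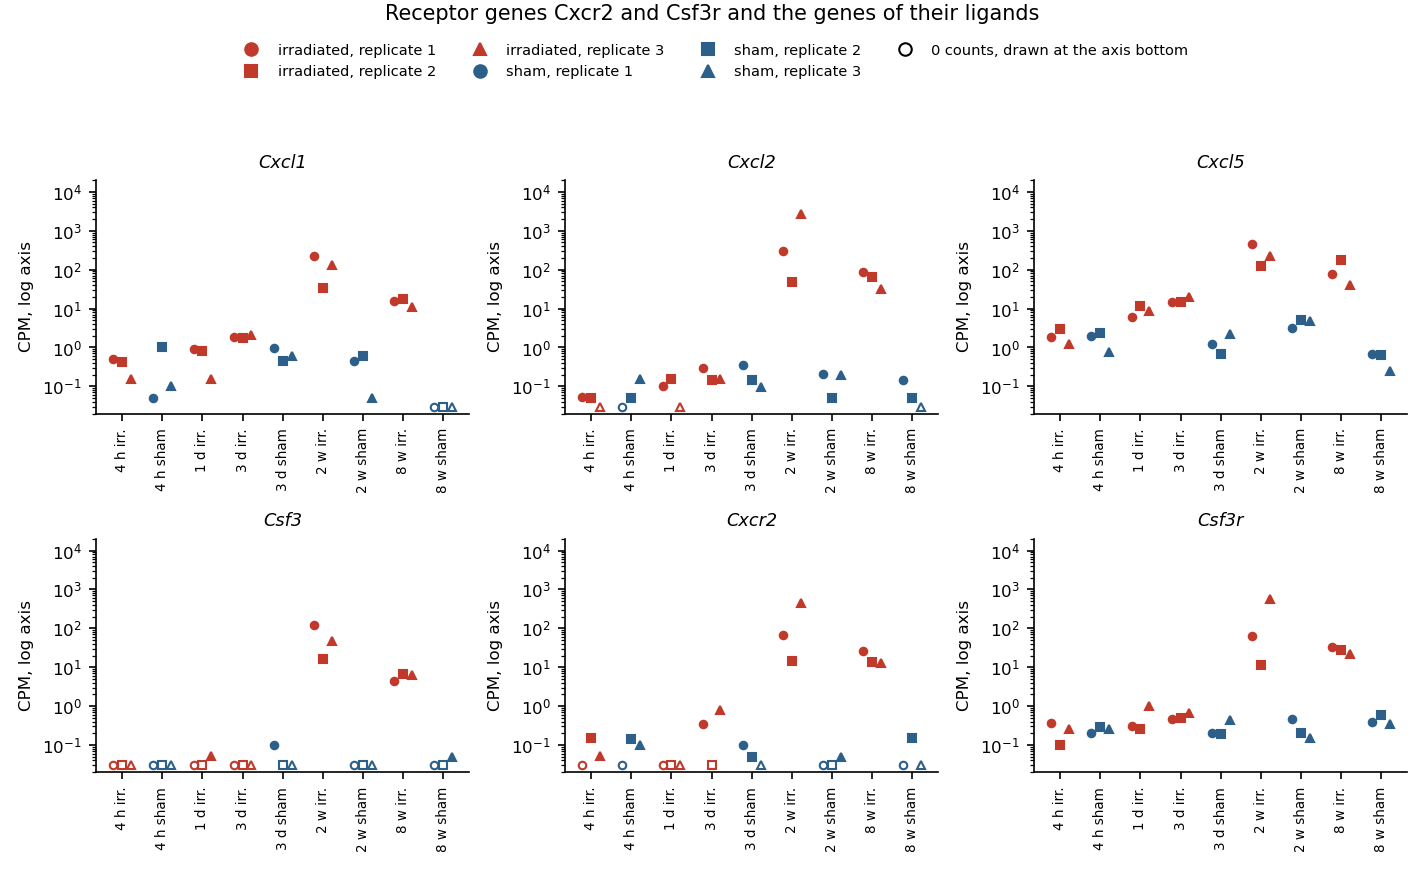
CPM (log axis) of the chemokine genes Cxcl1, Cxcl2 and Cxcl5, of Csf3 and of the receptor genes Cxcr2 and Csf3r in the 27 libraries, with irradiated mice in red left of sham mice in blue and open symbols for 0 counts. Cxcl5 is above sham in all irradiated mice from 1 day on, and the other genes are far above it only at 2 and 8 weeks.

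Stefins and other cytosolic genes of neutrophils were mixed. Of 17 listed, 9 of 15 tested rose and 1 fell at 2 weeks, and 8 of 12 rose at 8 weeks. Hdc, which makes histamine, had 76.8, 15.1 and 854 CPM in irradiated mice at 2 weeks, against 0.202, 0.602 and 0.200 CPM in sham mice (log2 fold change 9.85 ± 1.91, SE, edgeR adjusted p = 0.0149, and 0.0573 to 0.0683 without 1 of the sham mice). Leaving out any 1 of the 3 sham mice at 2 weeks (1, 2 or 3) brought the 9 calls to 0, and leaving out irradiated mouse 1 brought them to 5. Csta1, another stefin, moved the other way from the members at 2 weeks, with 1.87, 3.47 and 2.17 CPM in irradiated mice, against 7.12, 11.1 and 8.06 CPM in sham mice (-1.82 ± 0.320, adjusted p = 0.0115, and 0.0529 without sham mouse 2). It was higher at 8 weeks, with 38.3, 26.4 and 19.4 CPM in irradiated mice, against 3.16, 3.72 and 3.06 CPM in sham mice (3.05 ± 0.280, adjusted p = 0.000234). The change between these times passed the test of the difference itself (4.88 ± 0.442, adjusted p = 0.00103). Stfa3 had 0.706, 0.595 and 12.8 CPM in irradiated mice at 2 weeks and 21.0, 0.451 and 33.2 CPM in irradiated mice at 8 weeks, with 0 counts in the sham mice of both times. The mice of the 2 times overlapped for Stfa3. Stfa1 rose at 2 weeks (6.61 ± 1.79, adjusted p = 0.0381), and Stfa2, with 0 counts in the sham mice, did not pass (adjusted p = 0.0566). Acod1, which makes itaconate, and the metalloprotease gene Adam8 rose at both times, by 12.39 ± 2.56 and 7.84 ± 1.5 at 2 weeks on the log2 scale (adjusted p = 0.0175 and 0.0143). The calls of Acod1, Adam8 and Stfa1 at 2 weeks were lost without any 1 of the sham mice, and that of Stfa1 also without irradiated mouse 3 (adjusted p of 0.0548 to 0.128). Paralogs of the members, genes of the same families, counted 10 higher and 1 lower of 16 tested at 2 weeks and 13 higher of 17 at 8 weeks. Among them Chil1 had 71.1, 15.1 and 267 CPM in irradiated mice at 2 weeks, against 0.152, 0.0501 and 0.1001 CPM in sham mice (10.10 ± 1.46, adjusted p = 0.00687). Wfdc18, a relative of Wfdc21, and the matrix metalloprotease genes Mmp10 and Mmp13 rose at both times, by 4.91 to 8.96 at 2 weeks on the log2 scale. Chil4 was not tested, with a mean of at most 0.827 CPM in irradiated mice. Retnlb, the epithelial relative of Retnlg, had 60.1, 179 and 36.0 CPM in irradiated mice at 2 weeks, against 0.0505, 0 and 0 CPM in sham mice, and was highest in replicate 2, the mouse with the least Retnlg.

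Most macrophage and monocyte markers rose with the members at both late times, while squamous markers rose as a list only at 8 weeks. The part of these cells in the members' levels was not tested. Of 14 macrophage and monocyte genes, 12 rose at 2 weeks (6 without sham mouse 1 and 7 without sham mouse 3), and their summed level was 1208 to 3177 CPM in irradiated mice, against 523.8 to 635.5 CPM in sham mice. At 8 weeks 12 rose and 2 fell, with sums of 1027 to 1279 CPM in irradiated mice, against 706 to 874 CPM in sham mice. Plac8, named after its values were seen, made up most of each sham sum at both times. At 2 weeks it had 668, 677 and 865 CPM in irradiated mice, against 362, 447 and 401 CPM in sham mice. The sums therefore say little about the other genes of the list. Adgre1, Ccr2, Ly6c2, C1qb and Arg1 rose at both times. At 2 weeks the call of Ccr2 was lost without any 1 of the sham mice or irradiated mouse 1 or 3, that of Ly6c2 without sham mouse 1 or 3 and that of Arg1 without sham mouse 1. C1qa, a macrophage gene, was highest in replicate 1 at 2 weeks (144, 66.8 and 96.1 CPM in irradiated mice, against 8.43, 13.2 and 11.8 CPM in sham mice), unlike the members. The monocyte gene Ly6c2, with 59.7, 10.5 and 178 CPM in irradiated mice at 2 weeks, was highest in replicate 3, like the members. So was the sum of the list (2189, 1208 and 3177 CPM in replicates 1, 2 and 3), and both orders were found among its genes. Squamous epithelium genes, which include keratins of skin and of the anal canal, summed to 26.2 to 41.9 CPM in irradiated mice at 2 weeks, against 11.4 to 44.6 CPM in sham mice, and 2 of 8 tested rose and 1 fell. Without sham mouse 1 or 2 none rose, and without irradiated mouse 3 only 1 did. The genes that rose were Dsg3 and Sbsn. At 8 weeks 18 of 18 rose, Krt14, Krt6a and Krt6b among them, with sums of 6233 to 8072 CPM in irradiated mice, against 12.7 to 15.3 CPM in sham mice. Krt5, a keratin of basal squamous cells, was near 0 in irradiated mice at 2 weeks (0.252, 0.248 and 5.27 CPM) and in sham mice (0.101, 0.0501 and 3.66 CPM). Squamous cells can also express S100a8, S100a9 and stefins. In early and sham libraries both orders were seen. In irradiated mice at 4 h the squamous sums were 25.2, 31.3 and 200 CPM, and S100a9 had 0.0519, 0 and 1.03 CPM. In irradiated mice at 1 day the sums were 705, 29.0 and 41.0 CPM, and S100a9 had 0.404, 0.406 and 0.464 CPM. In sham mice at 2 weeks they were 11.4, 12.6 and 44.6 CPM, with S100a9 at 0.101, 0.150 and 1.00 CPM, and in sham mice at 4 h 13.2, 46.0 and 13.9 CPM, with S100a9 at 0, 0.390 and 0.352 CPM. Over the 7 early or sham groups, the mouse with the highest squamous sum had the most S100a9 in 3 and the most S100a8 in 2. With 3 mice in a group and 0 to 20 counts of either gene in a library, some matches arise without a link, so nothing is read from these numbers. Irradiated mice at 8 weeks, not among these groups, had squamous sums of 6233, 8072 and 7517 CPM. Their S100a8 was at 257, 50.04 and 223 CPM and their S100a9 at 367, 144 and 313 CPM. Wfdc21 had 0.303 CPM in the mouse with 705 CPM and 0 in the other 2 of that group.

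The other marker lists moved less. Of 6 red cell and platelet genes tested, 1 rose at each late time, the platelet gene Pf4 at both, and Hba-a1, Hba-a2, Alas2 and Hbb-bs did not pass, with sums of 62.1 to 139 CPM in irradiated mice at 2 weeks, against 25.3 to 98.1 CPM in sham mice. At 8 weeks the sums were 30.1 to 176 CPM in irradiated mice, against 39.1 to 46.6 CPM in sham mice. Of eosinophil and mast cell genes 1 of 6 tested rose at 2 weeks (0 without sham mouse 1, 2 or 3, and 2 without irradiated mouse 2 or 3) and 5 of 8 at 8 weeks (3 without sham mouse 1 or 2). The eosinophil gene Siglecf was the one at 2 weeks, and the mast cell genes Mcpt4, Cpa3 and Tpsb2 were among those at 8 weeks, while Ear2 passed at neither time and Epx was near 0. Of 6 lymphocyte genes tested at 2 weeks 0 rose in edgeR's test (2 without irradiated mouse 2), and 2 of 9 rose at 8 weeks (1 without sham mouse 1 or 3 or irradiated mouse 1 or 2). Those were Jchain and Cd4, the call of Cd4 being the one lost, and Cd3e, Cd79a and Cd8a did not pass. Of 11 rectal epithelium genes 2 rose and 2 fell at 2 weeks (1 rose without sham mouse 1, 2 or 3), and 2 rose and 6 fell at 8 weeks. Cdx2 and Muc2 were those that rose at both times, Car1 fell at both, and Krt20 and Vil1 fell at 8 weeks. The call of Muc2 at 2 weeks was the one lost, and that of Car1 at 2 weeks was lost without any 1 of the sham mice or irradiated mouse 1. Of 7 genes of the rectal wall 2 rose and 1 fell at 2 weeks, and 3 rose at 8 weeks (1 without sham mouse 2 or 3). Col1a1 and Pecam1 rose at both times, and Acta2 fell at 2 weeks, a call lost without sham mouse 1 or 2 or irradiated mouse 1.

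**Figure D5:**
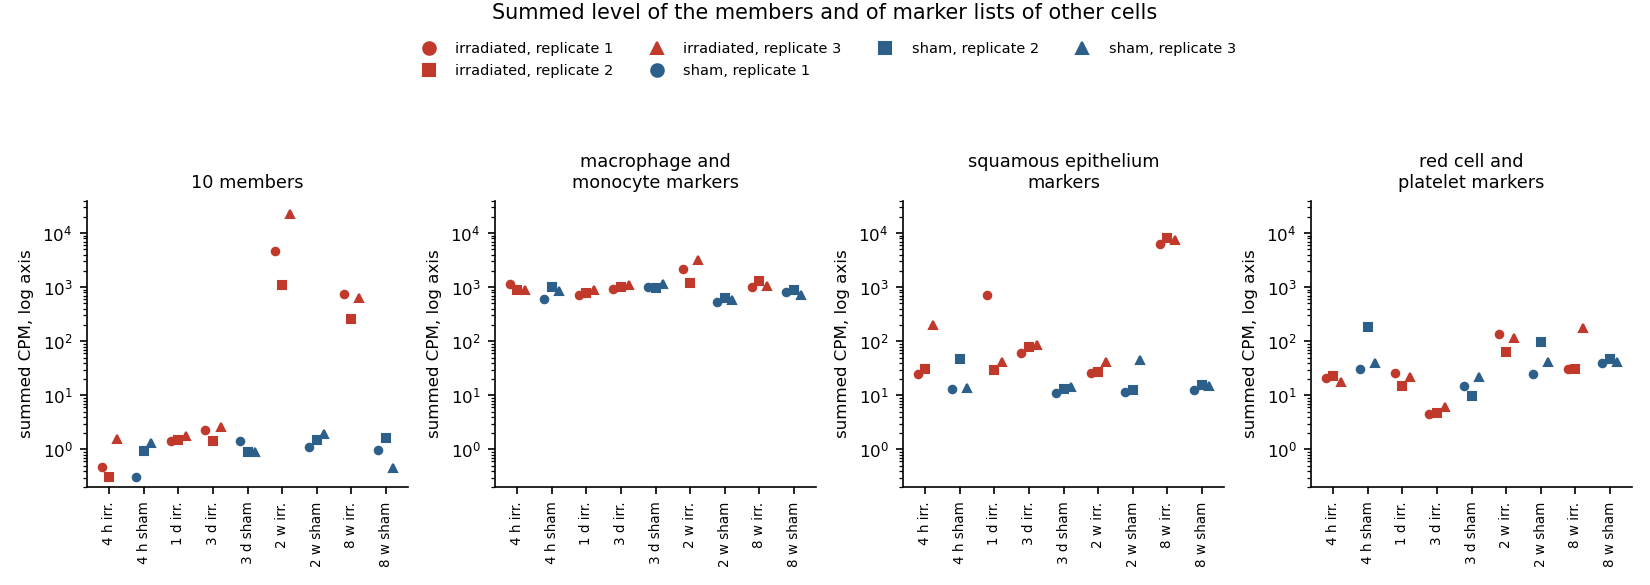
Summed CPM (log axis) of the 10 members and of 3 marker lists in the 27 libraries, with irradiated mice in red left of sham mice in blue and 1 symbol per mouse. The members sum to 1092 to 22320 CPM in irradiated mice at 2 weeks, against 1.11 to 1.90 CPM in sham mice, while the squamous sum is 6233 to 8072 CPM in irradiated mice at 8 weeks and at most 705 CPM in any other library.

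The genes whose pattern was most like that of the members were ranked by Pearson's r between their log2 CPM and the mean z score of the 10 members over the 27 libraries, among 14042 genes with a mean of at least 1 CPM. The first 8 were Fpr1 (0.992), Ccl4 (0.986), Gm5483 (0.985), Cxcl2 (0.982), Itgam (0.981), an assembled gene with no symbol, Mrgpra2b and Cxcl3 (each 0.979). Such values are high for any gene that is near 0 outside the late irradiated mice, and they are a description over libraries that share these groups. Fpr1, the receptor for formylated peptides of bacteria, had a mean of 46.3 CPM in irradiated mice at 2 weeks and 0 counts in sham mice, and 3.02 CPM in irradiated mice at 8 weeks against 0.0165 CPM in sham mice. Within the 6 late irradiated libraries alone its r was 0.964.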

How the data were processed

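Whole rectal RNA of 27 mice was sequenced, 3 per group, and samples were grouped by the labels of treatment, time and replicate. The methods call the 3 samples of a group biological replicates, and each is read here as its own animal. Within groups, no pair of libraries agreed within sampling noise. The authors deposited raw counts and FPKM values, both for 19690 genes. Per the submitters' processing notes, reads were trimmed with fastp 0.18.0, aligned to mm9 with HISAT2, assembled with StringTie 1.3.1 and quantified with RSEM. The sources used here do not give the program that counted the reads, its handling of strand or the annotation release, so reads shared by similar or overlapping genes, such as the stefins and the Ly6 family, may have been split either way. The deposited FPKM served for levels between genes and as an alternative.

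Counts were fitted with edgeR 4.0.16 in R 4.3.3 (quasi-likelihood test after filterByExpr and TMM) over the groups compared, and p-values were adjusted over all genes tested by the Benjamini-Hochberg method within each of 13 comparisons. A call is an adjusted p under 0.05. With 3 against 3 mice an exact permutation test cannot go below p = 0.1, so none was used. CPM were scaled by TMM over all 27 libraries. Where the sham group had 0 counts a lower bound was computed with 3 counts put in for that whole group. With 1 to 3 counts the ratio of summed counts carries a 95% interval. Both are for the summed counts of a group and need not hold for each mouse. Symbols were matched to GENCODE vM1 by Ensembl identifier for mm9 coordinates, where Chil3 is named Chi3l3 and Wfdc21 1100001G20Rik. The fits were tested on simulated counts.

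The members and the 13 gene lists (167 genes, 4 absent from the tables) were chosen with earlier results of these data known. Named are all members and, from each list, its defining markers, the 3 genes with the smallest p at 8 weeks and the 2 at 2 weeks, and the 8 genes of most like pattern, except 1 listed gene that is not reported here. Same-numbered mice deviated together only at 3 days (correlations of 0.341, 0.364 and 0.455, against at most 0.0324 for other pairs). No member was tested within 3 days, but the change of effect from 3 days to 2 weeks used these mice and is also given with a replicate block. The calls of list genes at 3 days and the shares of all genes there are from the fit without that block. List genes behind counts of 5 or fewer could be named after their values were seen. Alternatives were other scalings and filters, DESeq2 1.42.0, limma 3.58.1 on log2(FPKM + 1) and log2(FPKM + 0.1), all 9 groups in 1 fit, all sham mice as controls, a replicate block, stricter thresholds (adjusted p below 0.01 with a log2 change over 1 either way) and leaving out each library. Figures were drawn with matplotlib 3.10.9 in Python 3.11.15.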

Additional observations from a re-analysis of the deposited data

Results flagged for a closer look

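The effect of irradiation on 2 genes of the neutrophil lists differed between times by the test of the difference itself (edgeR's quasi-likelihood test, Benjamini-Hochberg adjusted p over all genes). Both genes had counts in every sham mouse, where the members were at the limit of detection. Which cells held this RNA was not tested. The effect on Ly6g was lower at 8 weeks than at 2 weeks, by -2.16 ± 0.307 on the log2 scale (SE, adjusted p = 0.0087), with 3 of 3 irradiated mice below all sham mice at 8 weeks and 3 of 3 above them at 2 weeks. How reads shared between Ly6g and its relatives in the Ly6 family were counted is not known. The change was called under all 22 alternatives run at the usual threshold, with adjusted p of 2.27e-08 to 0.0357. For Csta1 the effect was 4.88 ± 0.442 higher at 8 weeks than at 2 weeks (adjusted p = 0.00103), with 3 of 3 irradiated mice above sham at 8 weeks and 3 of 3 below at 2 weeks. The change of Csta1 was called under all 22 as well, with adjusted p of 1.74e-21 to 0.00745. Csta1 also had log2 fold changes of 1.47 at 4 h, 3.92 at 1 day and 2.84 at 3 days, when the members were at the limit of detection.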

How the results depend on the processing

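No member's fold change turned in direction under any alternative run, in the comparisons that tested members. These all used the mice at 2 or 8 weeks, by whose levels the members were chosen, so nothing is read from this. Against sham at 2 weeks the count of members called was 10, and 5 to 10 when 1 library was left out. The count at 8 weeks stayed at 9 or within 1.5 times of it in all alternatives. Without a filter on low counts Ngp, untested at 8 weeks, had a log2 fold change of 8.25 there. For the change of the radiation effect from 3 days to 2 weeks (2 called), DESeq2 called 9, limma on log2(FPKM + 1) and log2(FPKM + 0.1) 10 each, limma without a filter 9, all 9 groups in 1 fit 4, the replicate block 7, stricter thresholds 0 and fits without 1 library 0 to 5. For the change from 4 h to 3 days (0 called) limma without a filter called 1. From 2 to 8 weeks (0 called) DESeq2 called 1, limma on log2(FPKM + 1) 2, on log2(FPKM + 0.1) 1 and without a filter 1. Irradiated mice at 2 weeks against 3 days gave 4 to 10 calls without 1 library (10 with all). Irradiated mice at 8 weeks against 2 weeks (1 called) gave 7 with DESeq2, 9 with all 9 groups in 1 fit, 0 with limma on log2(FPKM + 0.1), 0 without its filter, 0 at stricter thresholds and 0 to 8 without 1 library. Apart from the change from 3 days to 2 weeks, the replicate block moved no count of members by more than 1.5 times. The cause of these shifts was not tested. Limits are 3 mice per group, a spread of up to 52.0 times between irradiated mice at 2 weeks, and sham levels near 0 counts, which leave the size of the folds uncertain.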
